A study of Mus musculus with 15 samples.

Results

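The 5 genes Efna1, Efna2, Efna3, Efna4 and Efna5 encode the ephrin-A ligands of the mouse. They were taken by symbol, each matched to 1 Ensembl gene, and all 5 were among the 33223 genes counted in both the CD45 fraction and the flow-through of injured cortex. The libraries are bulk RNA sequencing of the ipsilateral cortex, 1 day after a moderate controlled cortical impact, a piston injury of the exposed brain, to the right parietal side. All animals carried EphA4 f/f, the floxed allele of the receptor. WT animals had EphA4 f/f alone, and KO animals also had VeCadCreERT2, a tamoxifen-dependent Cre recombinase under the VE-cadherin promoter, which is active in endothelial cells. The sources used here give neither the animals' age nor the tamoxifen schedule. Dissociated tissue went over CD45 and CD31 microbeads, and RNA was taken from the CD45 cells and from the flow-through, labelled as all other cortical cells. No uninjured cortex is among the groups.

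Ephrin-A ligands are held in the outer membrane leaflet by a glycosylphosphatidylinositol anchor and bind EphA receptor tyrosine kinases on neighbouring cells. Binding starts forward signalling in the receptor cell, which acts on small GTPases and the actin cytoskeleton and often makes growth cones or cells turn away, and reverse signalling in the ligand cell through co-receptors. In the brain the family is known for topographic axon mapping and for contacts between astrocytes and dendritic spines, and EphA4 stands out because it also binds ephrin-B ligands.

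The 14 libraries used split into 7 of the flow-through (4 WT, 3 KO) and 7 of the CD45 fraction (3 WT, 4 KO), with 11574414 to 31337948 counts each. Levels are in CPM, counts scaled to the library total. Replicate numbers only name libraries, in accession order, and pair nothing. A further library labelled flow-through WT, called replicate 5 here, was deposited in the CD45 table, and its 6 leukocyte markers sum to 7171 CPM, against 25.6 to 35.5 in the other flow-through libraries. It was left out, and its ligand values are given apart. The labels were checked against marker genes. Leukocyte markers summed to 6722 to 7523 CPM in the CD45 libraries. Summed astrocyte markers were 6652 to 8063 CPM in the flow-through and 130 to 200.4 CPM in the CD45 libraries, and 8 neuron markers summed to 489 to 773 and 22.4 to 144 CPM. The 8 endothelial markers, all higher in the CD45 fraction, summed to 291.8 to 493.4 CPM there and to 41.1 to 61.0 CPM in the flow-through. Epha4, the floxed gene, measured 38.5 to 43.0 CPM in flow-through WT and 36.03 to 42.2 CPM in flow-through KO libraries, and 2.699 to 2.92 CPM in CD45 WT and 1.69 to 3.54 CPM in CD45 KO libraries. Its count takes reads from the whole gene in all cells of a fraction, so it does not check the endothelial deletion.

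Of the 5 genes, 3 form a cluster on chromosome 3, all on the minus strand. In GRCm38 (GENCODE M21), Efna1 lies at chr3:89271733-89281142, Efna3 at chr3:89313899-89322965 and Efna4 at chr3:89333390-89338028. Slc50a1, a sugar transporter gene, lies 1163 bases from Efna1, and Adam15, a metalloprotease gene, 514 bases from Efna4. Efna2 lies apart at chr10:80179482-80190010 on the plus strand. Efna5 is the longest, at chr17:62604184-62881317 on the minus strand, with a span of 277134 bases and 4032 bases of exon. Exons of Efna3 overlap the opposite-strand gene Gm15998 over 344 bases (14.1% of its exon length), and those of Efna4 overlap 4731419I09Rik over 168 bases (10.5%). As the sources used here do not give the strand setting of the counting, values of Efna3 and Efna4 are uncertain to that extent.

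The promoters of Efna2 and Efna3 are shown because these ligands had the largest and the smallest difference between fractions. Each run is the 250 bases before the RefSeq start (GRCm38.p6), 5′ to 3′ on the gene's strand, at chr10:80179232-80179481 (plus) and chr3:89322940-89323189 (minus). Where RefSeq lists several starts (2 each for Efna1 and Efna3), the one nearest the 5′ end of the GENCODE gene was used. Capitals mark GC boxes, the letters GGGCGG or their reverse complement CCGCCC.
Efna2: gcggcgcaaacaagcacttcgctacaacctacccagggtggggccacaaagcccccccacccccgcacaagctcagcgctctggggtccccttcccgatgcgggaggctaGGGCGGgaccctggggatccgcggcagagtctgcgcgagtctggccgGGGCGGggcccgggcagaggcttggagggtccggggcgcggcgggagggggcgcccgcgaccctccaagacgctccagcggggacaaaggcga
Efna3: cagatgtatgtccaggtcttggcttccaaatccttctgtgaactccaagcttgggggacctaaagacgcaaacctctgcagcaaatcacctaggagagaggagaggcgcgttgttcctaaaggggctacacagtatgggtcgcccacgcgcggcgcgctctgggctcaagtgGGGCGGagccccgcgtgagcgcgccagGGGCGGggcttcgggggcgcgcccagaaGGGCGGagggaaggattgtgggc
By this search on both strands, Efna5 held 4 GC boxes in its window, Efna3 held 3, Efna2 held 2, Efna1 held 1 and Efna4 held 0. Of 32851 RefSeq promoter windows of this length, 32.74% held at least 1. The letters CCAAT were found only in the window of Efna4, against 33.85% of all windows, and TATAAA (12.37% of windows) and CACGTG (6.02%) in none of the 5. CpG pairs numbered 32 for Efna5, 25 for Efna2, 19 for Efna3, 16 for Efna1 and 7 for Efna4, against a median of 6 over all windows and a 90th percentile of 25. Efna4 was thus the member with the fewest CpG pairs, near the median window. The windows are a description of sequence and were not measured in these libraries.

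Every ligand was lower in the CD45 fraction than in the flow-through, by 3.14-fold for Efna3 to 22.4-fold for Efna2. By edgeR's quasi-likelihood test with Benjamini-Hochberg adjustment, 5 of 5 ligands passed an adjusted p of 0.05. Most genes did so: 86.1% of 18098 genes tested differed between the fractions, 44.7% lower and 41.4% higher in CD45, so the calls alone do not set the ligands apart. Their median log2 difference, CD45 minus flow-through, was -2.71, beside -0.05 over all genes tested. In bulk samples, fewer cells of a type and less RNA per cell cannot be told apart. No label names an animal, so the p-values reflect spread among libraries that may be partly technical, and both fractions may come from the same animals.

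**Figure D1:**
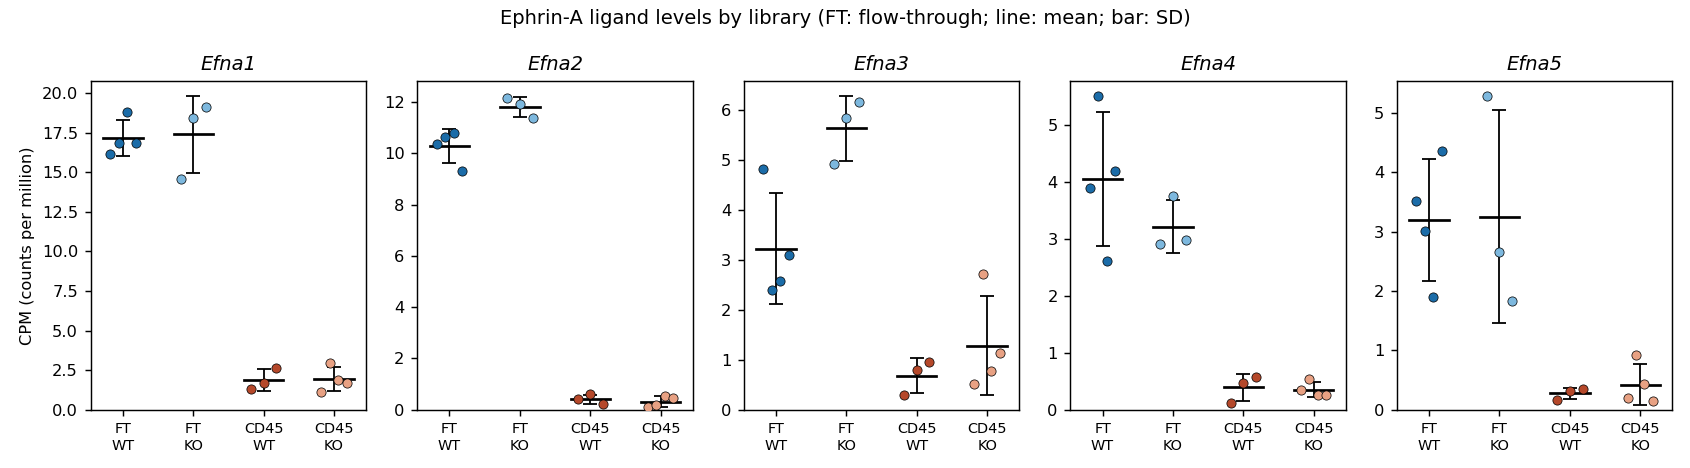
Level of each ephrin-A ligand, in CPM on an axis from 0 with its own scale per gene, in every library of the 4 groups (FT, flow-through), with the group mean (line) and SD (bar). All CD45 libraries sit below all flow-through libraries for 4 ligands, while 1 CD45 KO library reaches 2.72 CPM for Efna3.

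Efna1, first described as a protein that endothelial cells release on cytokine stimulation and a ligand of EphA2, was the most abundant. It measured 16.2, 16.9, 18.8 and 16.8 CPM in the flow-through WT libraries, and 14.6, 18.4 and 19.1 CPM in the flow-through KO libraries. In the CD45 fraction it measured 1.32, 1.70 and 2.66 CPM (WT) and 1.15, 2.96, 1.90 and 1.70 CPM (KO), from 22 to 69 counts per library. The fractions did not overlap, and the genotypes overlapped within both. Its log2 difference between fractions was -2.66 (SE 0.19, edgeR adjusted p = 1.12e-09).

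Efna2, a ligand known from retinotectal mapping, showed the largest drop. Its levels were 10.4, 10.6, 10.8 and 9.31 CPM in flow-through WT and 12.1, 11.9 and 11.4 CPM in flow-through KO libraries. CD45 levels were 0.412, 0.594 and 0.231 CPM (WT) and 0.0957, 0.194, 0.518 and 0.463 CPM (KO). These rest on 3 to 15 counts per library, and the lowest value has a Poisson 95% interval of 0.0197 to 0.28 CPM, which covers counting error only. No CD45 library came near the flow-through range, and the log2 difference was -4.48 (SE 0.24, edgeR adjusted p = 3.18e-11).

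Efna3, which astrocytes are known to present to EphA4 on dendritic spines in the hippocampus, had the smallest difference. Flow-through WT libraries gave 4.82, 2.39, 2.57 and 3.09 CPM, and flow-through KO libraries 4.91, 5.83 and 6.16 CPM. CD45 libraries gave 0.288, 0.792 and 0.964 CPM (WT) and 0.511, 2.72, 0.778 and 1.13 CPM (KO). It was the 1 ligand whose fractions overlapped: CD45 KO replicate 2, at 2.72 CPM, stood above flow-through WT replicates 2 and 3. The log2 difference of -1.65 (SE 0.33, edgeR adjusted p = 0.000236) became -1.99 without that library. Summed neuron markers were 144 CPM in CD45 KO replicate 2 and 22.4 to 61.6 CPM in the other CD45 libraries. This library also had the highest CD45 sums for astrocytes (200.4 CPM), endothelial cells (493.4 CPM) and pericytes and smooth muscle (91.8 CPM). Its sums for oligodendrocytes, oligodendrocyte precursors and neuroblasts were not the highest. The part of RNA from any of these cell types in the Efna3 level was not tested.

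Efna4, a broadly expressed ligand with a role in skull suture formation, measured 3.89, 5.50, 2.62 and 4.19 CPM in flow-through WT and 2.91, 3.75 and 2.97 CPM in flow-through KO libraries. It measured 0.124, 0.475 and 0.578 CPM in CD45 WT and 0.351, 0.534, 0.259 and 0.257 CPM in CD45 KO libraries, from 3 to 15 counts each. The fractions were separated by a wide gap (log2 difference -2.72, SE 0.28, edgeR adjusted p = 1.11e-07).

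Efna5, a repellent ligand of axon mapping that also binds EphB2, varied between libraries of the flow-through. It measured 3.51, 3.02, 1.90 and 4.35 CPM in WT and 5.28, 2.66 and 1.83 CPM in KO libraries of that fraction. CD45 values were 0.165, 0.317 and 0.347 CPM (WT) and 0.191, 0.922, 0.432 and 0.154 CPM (KO), and the lowest, from 3 counts, has a Poisson 95% interval of 0.0318 to 0.451 CPM. The highest CD45 value, again in CD45 KO replicate 2, remained below the lowest flow-through value. The log2 difference was -2.71 (SE 0.38, edgeR adjusted p = 5.25e-06).

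For 4 of 5 ligands, then, no CD45 library reached the flow-through range, while 49.7% of all genes tested were separated in that direction. The log2 differences above use TMM scaling, which corrects library totals for composition. Plain library totals, the scale of the CPM values, moved the median of all genes from -0.05 to -0.58 and the ligands with it, to -3.18 for Efna1, -5.01 for Efna2, -2.18 for Efna3, -3.24 for Efna4 and -3.23 for Efna5. The split of all called genes moved from 7492 higher and 8091 lower to 5083 higher and 10740 lower, and 5 of 5 ligands were called lower on either scale. Each genotype alone gave the same 5 calls: from WT libraries the log2 differences were -2.54, -4.01, -1.60, -2.71 and -2.88 for Efna1 to Efna5, and from KO libraries -2.71, -4.90, -1.65, -2.67 and -2.49.

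**Figure D2:**
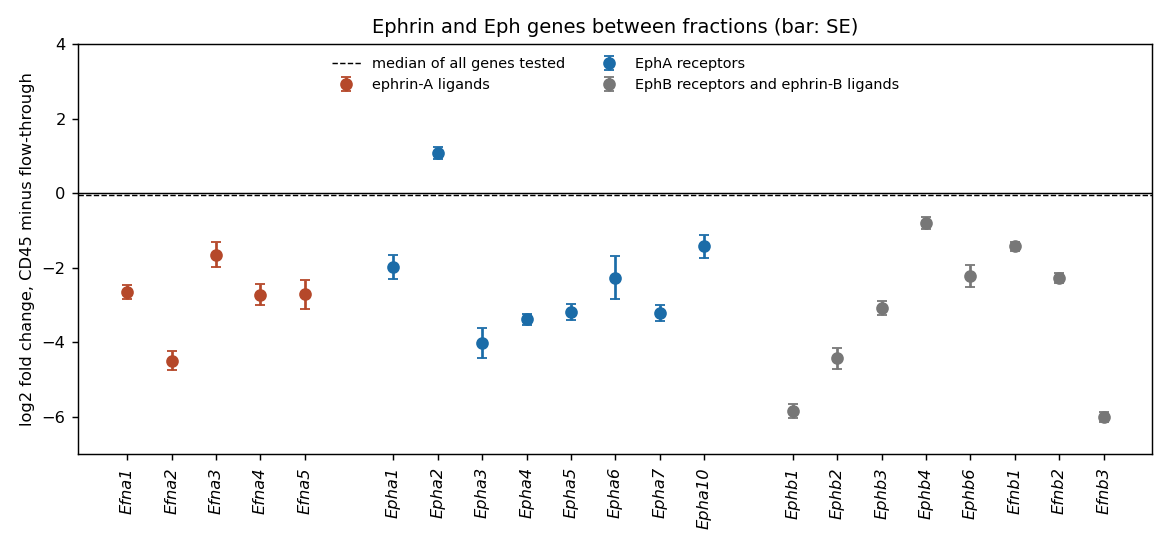
Log2 fold change, CD45 minus flow-through, of the ephrin-A ligands, EphA receptors, and EphB receptors with ephrin-B ligands (points, with SE as bars), and the median of all genes tested at -0.05 (dashed). The 5 ligands lie between -4.48 and -1.65, and Epha2 at 1.07 is the 1 gene above 0.

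Set against marker RNA, the mean CD45 level was 11.1% of the flow-through mean for Efna1, 3.28% for Efna2, 24.1% for Efna3, 9.98% for Efna4 and 11.2% for Efna5. The same share was 9.14% for the summed markers of neurons, 2.04% for astrocytes, 2.30% for oligodendrocytes, 1.85% for oligodendrocyte precursors, 58.5% for neuroblasts, 51.9% for pericytes and smooth muscle, and 664% for endothelial cells. The neuroblast share rests on Cd24a, which was higher in CD45 (log2 difference 1.12), while the other 5 neuroblast markers were called lower and the list's median was -6.65. All 5 ligands lay above the 3 summed glial shares, Efna2 by the least, and only Efna3 lay well above the summed neuron share. A sum follows its most abundant markers, and single markers differed widely on plain library totals. Log2 differences there ran from -6.32 (Aqp4) to -2.99 (Gja1) for astrocyte markers. Oligodendrocyte precursor markers ran from -7.13 (Olig1) to -2.49 (Cspg4), and neuron markers from -6.79 (Tubb3) to -2.25 (Syn1). The ligands ran from -5.01 (Efna2) to -2.18 (Efna3), so the order does not hold for every single marker. How much of the ligand RNA in the CD45 libraries comes from cells of these other types was not tested. The left-out library had 2.53 CPM of Efna1, 0.413 of Efna2, 1.84 of Efna3, 0.643 of Efna4 and 0.735 of Efna5, each within the range of the CD45 libraries except Efna4, which was slightly above it.

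Levels of different ligands were compared per kilobase of exon. In the flow-through the mean order was Efna1 (9.43 CPM per kilobase), Efna2 (5.13), Efna4 (2.31), Efna3 (1.75) and Efna5 (0.799). The ranges of Efna1, Efna2 and Efna4 did not overlap in that order, whereas Efna4 and Efna3 overlapped and stood in that order in 4 of 7 libraries. Those 4 were the WT libraries. Efna3 stood above Efna4 in each KO library, by little in KO replicate 2 (2.40 and 2.34 CPM per kilobase), and this split was not tested. Efna3 exceeded Efna5 in 7 of 7 libraries although their ranges overlapped. In the CD45 fraction the mean order was Efna1 (1.05 CPM per kilobase), Efna3 (0.422), Efna4 (0.23), Efna2 (0.168) and Efna5 (0.0896). There every pair of neighbours overlapped, and Efna1 stood above Efna3 in 7 of 7 libraries.

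**Figure D3:**
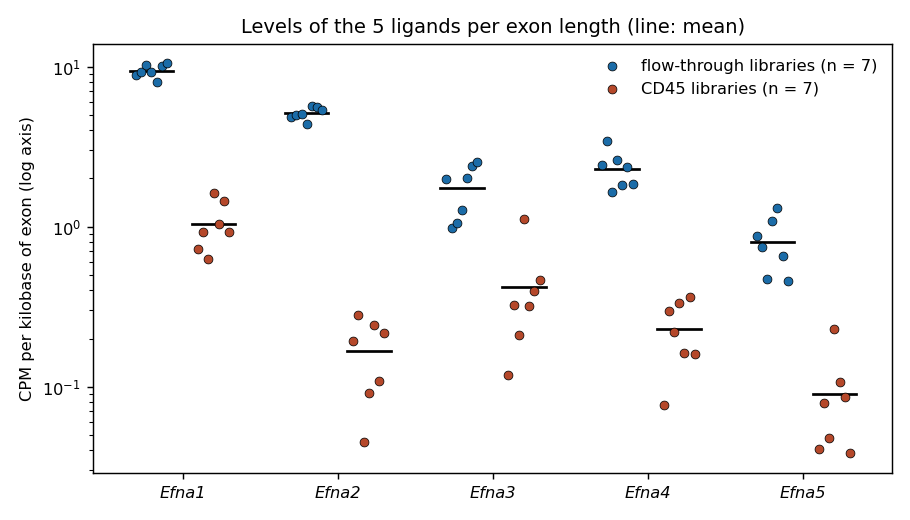
Level of each ligand in CPM per kilobase of exon (log axis) in the 7 flow-through and 7 CD45 libraries, with the mean as a line. Efna2 is the second highest ligand in the flow-through, at 5.13, and the fourth in CD45, at 0.168.

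The mix of ligands thus differed between fractions. Efna1 made up 48.6% of the summed ephrin-A level per kilobase in the flow-through and 54.4% in CD45. Efna2 went from 26.4% to 9.65%, and its range over libraries was 23.6 to 30.3% in the flow-through and 2.69 to 16.8% in CD45, with no overlap. Efna3 made up 8.92% and 19.7%, with ranges of 5.07 to 12.3% and 10.3 to 32.96% that overlapped. Efna4, at 11.9% and 11.97%, and Efna5, at 4.16% and 4.28%, held shares of like mean size. These shares are a description of the libraries and were not tested. Summed over the family, ephrin-A level per kilobase was 19.4 ± 1.03 (SD, n = 7) in the flow-through and 1.95 ± 0.773 (SD, n = 7) in CD45. The 9 EphA receptors summed to 10.3 and 4.36 CPM per kilobase in the same libraries, and the ephrin-B ligands to 116 and 3.74.

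On the receptor side, 7 of 8 EphA receptors tested were lower in CD45 and 1 was higher. Of all genes tested, 44.7% were lower and 41.4% higher, and the receptors' median log2 difference was -2.73. Epha4, the receptor targeted for deletion in the KO endothelium, fell by 3.38 on the log2 scale (SE 0.14, edgeR adjusted p = 1.05e-12). Epha7, Epha5 and Epha3, receptors of axon guidance, had log2 differences of -3.21, -3.19 and -4.01. Epha2, an epithelial and endothelial receptor of ephrin-A1, was the exception: it averaged 12.02 ± 1.34 CPM (SD, n = 7) in the flow-through and 17.3 ± 4.88 CPM (SD, n = 7) in CD45, with a log2 difference of 1.07 (SE 0.16, edgeR adjusted p = 1.06e-05). On plain library totals the log2 difference of Epha2 was smaller, at 0.54. Epha2 and its ligand Efna1 therefore lay on opposite sides between these fractions. Endothelial markers were also higher in CD45, and their part in the Epha2 level was not tested.

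All 8 EphB receptors and ephrin-B ligands tested were lower in CD45, beside 44.7% of all genes tested, with a median of -2.68. The ephrin-B ligand Efnb3 had a log2 difference of -6.00, Efnb2, a ligand of arterial endothelium and neural cells, -2.28, and the receptors Ephb1 (2.17% of its exon length overlaps Gm26846) and Ephb3 -5.84 and -3.08. The median drop of the ephrin-A ligands was thus close in size to those of both other groups, and no test set the groups against each other.

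Genes of EphA forward signalling divided. Of 20 tested, 12 were higher in CD45 and 7 lower, beside 41.4% and 44.7% of all genes tested. On plain library totals, however, the split was 8 higher and 9 lower. Vav3 and Tiam1, exchange factors for Rac GTPases, had log2 differences of 2.60 and 2.42, Rhoa, the GTPase, 1.27, and its kinase Rock1 1.21. Ngef, the EphA4-bound exchange factor ephexin, had -4.40, the adaptor Nck2 -3.49, Chn1, the Rac inactivator downstream of EphA4, -3.33, and the kinase Cdk5 -0.71. These 8 kept their direction on the other scaling, and exons of Chn1, Ngef and Rhoa overlap other genes. Of 6 genes of ephrin-A release and reverse signalling, 1 was higher and 5 lower. Adam10, the metalloprotease that cuts ephrin-A ligands from the cell surface, had a log2 difference of 1.82. Ntrk2 and Ret, co-receptors of reverse signalling, had -5.58 and -2.41, the kinase Fyn -1.79, and the anchor-cutting phospholipase gene Gpld1, of whose exons 45.5% overlap Mrs2, -4.43.

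Of the chromosome 3 neighbours, Adam15 was higher in CD45. It averaged 99.3 CPM in the flow-through and 347 CPM in CD45 (log2 difference 2.34, SE 0.06, edgeR adjusted p = 6.06e-15). Opposite-strand 4731419I09Rik covers 20.6% of its exon length, so its value is uncertain to that extent. Slc50a1 averaged 26.8 and 20.8 CPM, and its log2 difference was 0.17 with TMM scaling and -0.36 on plain library totals, so its direction depends on the scaling. Around Efna2, 1600002K03Rik had 0.19 and Mum1 -0.33, and around Efna5, Nudt12, whose exons overlap Nudt12os over 7.34% of their length, had -2.07 and Fbxl17 0.07. Of these, the values of 1600002K03Rik and Fbxl17 did not pass the test and turned negative on plain library totals.

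Within the flow-through, KO was compared with WT to ask whether the endothelial EphA4 KO genotype goes with a change of the receptor's ligands. Here 0 of 5 ligands passed the test by edgeR, beside 1.57% of 16546 genes tested (260 genes), 1.42% higher and 0.151% lower in KO. Efna3 came nearest: its WT mean was 3.22 ± 1.11 CPM (SD, n = 4) and its KO mean 5.64 ± 0.646 CPM (SD, n = 3), a log2 difference of 0.83 (SE 0.24, edgeR adjusted p = 0.139). All 3 KO libraries stood above all 4 WT libraries, but by little, as KO replicate 1 had 4.91 CPM (Poisson 95% interval 4.03 to 5.93) and WT replicate 1 had 4.82 CPM (3.94 to 5.85). Efna3 passed under DESeq2 (0.83, adjusted p = 0.0441), without a low-count filter (0.84, adjusted p = 0.00596) and without flow-through WT replicate 1 (1.10, adjusted p = 0.015). Over its alternatives the adjusted p ran from 0.00596 to 0.962.

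Neuron markers in the same libraries summed to 652, 577, 489 and 552 CPM in flow-through WT and 773, 720 and 593 CPM in flow-through KO libraries, and none of the 8 was at 0. The genotypes overlapped in this sum. KO replicate 3, with the most Efna3 (6.16 CPM), had the lowest sum of the KO libraries. WT replicate 1, with the most Efna3 of the WT libraries (4.82 CPM), had the highest sum of the WT libraries. The sum joins markers that moved in both directions: 5 of the 8 had a positive log2 difference and 3 a negative one, with a median of 0.65. Slc17a7, the vesicular glutamate transporter (log2 difference 1.19, edgeR adjusted p = 0.0343), and Syn1, a synaptic vesicle protein (0.58, edgeR adjusted p = 0.0134), were higher in KO. Gad2 was lower (-0.42, edgeR adjusted p = 0.0494), and 5 did not pass. These were Rbfox3 (0.85, edgeR adjusted p = 0.0626), Syt1 (0.78), Snap25 (0.73), Gad1 (-0.11) and Tubb3 (-0.23). Neuroblast markers summed to 894 to 1099 CPM in WT and 598 to 816 CPM in KO libraries, with no overlap. All 6 had a negative log2 difference (median -0.36) and 0 of 6 passed. The part of neuronal or neuroblast RNA in the Efna3 difference was not tested.

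**Figure D4:**
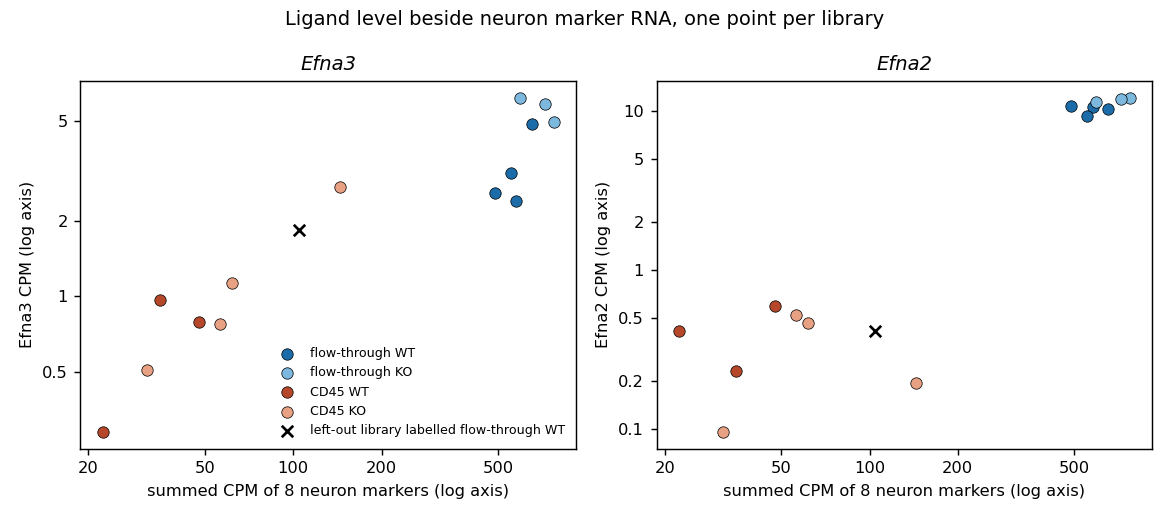
Level of Efna3 (left) and Efna2 (right) in CPM against the summed CPM of 8 neuron markers, both on log axes, 1 point per library, the left-out library as a cross. CD45 KO replicate 2, at a neuron sum of 144 CPM, has the highest Efna3 level of the CD45 libraries (2.72 CPM) but a low Efna2 level (0.194 CPM).

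Efna2 was also separated in the flow-through, with a WT mean of 10.3 ± 0.668 CPM (SD, n = 4), a KO mean of 11.8 ± 0.402 CPM (SD, n = 3) and a log2 difference of only 0.23 (SE 0.12, edgeR adjusted p = 0.549). Thus 2 of 5 ligands had KO libraries wholly above WT, beside 5.19% of all genes tested in that direction and 6.78% in the other. For Efna4 the WT mean was 4.05 ± 1.18 CPM (SD, n = 4) and the KO mean 3.21 ± 0.467 CPM (SD, n = 3), a log2 difference of -0.31 (SE 0.23, edgeR adjusted p = 0.697). Efna1, at 17.2 ± 1.14 and 17.4 ± 2.44 CPM, had 0.04 (SE 0.12), and Efna5, at 3.20 ± 1.02 and 3.26 ± 1.80 CPM, had 0.05 (SE 0.36). Both took either sign when single libraries were left out. The members' median was 0.05, beside -0.01 over all genes tested.

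**Figure D5:**
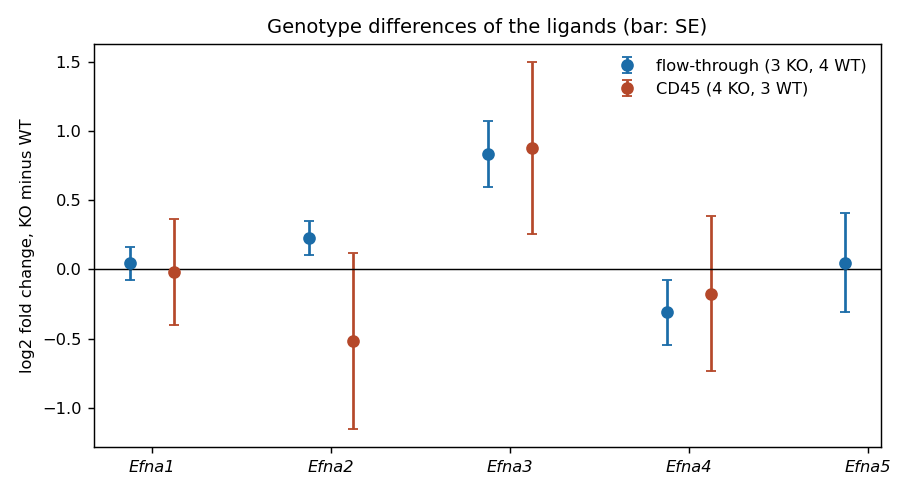
Log2 fold change, KO minus WT, of each ligand in the flow-through (3 KO, 4 WT libraries) and the CD45 fraction (4 KO, 3 WT), with SE as bars. Efna3 is at 0.83 and 0.88, neither past the test, and Efna5 has no CD45 point because it did not pass the low-count filter there.

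Among the ligands' partners, 1 gene passed between genotypes in the flow-through, beside 1.57% of all 16546 genes tested. Of 8 EphA receptors 0 passed, and Epha10, a receptor without kinase activity, had the smallest p (log2 difference 0.70, edgeR adjusted p = 0.129). Epha4 itself had -0.07 (SE 0.09, edgeR adjusted p = 0.849). Of the EphB receptors and ephrin-B ligands 1 of 8 passed: Ephb6, another receptor without kinase activity, was higher in KO (0.70, SE 0.13, edgeR adjusted p = 0.0142). Forward signalling had 0 of 20 past the test, with Tiam1 nearest (0.35, edgeR adjusted p = 0.21), and release and reverse signalling 0 of 6, with Ret nearest (0.61, edgeR adjusted p = 0.261).

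In the CD45 fraction, 4 of 5 ligands passed the low-count filter and 0 of 4 differed between genotypes, as did 0.0% of 15660 genes tested by edgeR (693 at an unadjusted p under 0.05, and 10 by DESeq2). The WT mean of Efna3 was 0.681 ± 0.351 CPM (SD, n = 3) and the KO mean 1.28 ± 0.989 CPM (SD, n = 4), a log2 difference of 0.88 (SE 0.62, edgeR adjusted p = 0.974). That value rests largely on KO replicate 2, without which it was 0.20. Efna2 had -0.52 (SE 0.64), Efna4 -0.18 (SE 0.56) and Efna1 -0.02 (SE 0.38). The groups overlapped for each ligand, whereas 2.92% of genes tested had KO wholly above WT and 2.16% wholly below. Efna5, which did not pass the filter in this fraction, had 0.55 without it (edgeR adjusted p = 0.892). In a joint fit of both fractions it had 0.52 (edgeR adjusted p = 0.900). Efna1 had 22 to 69 counts per library here, Efna3 7 to 56, Efna2 and Efna4 3 to 15, and Efna5 3 to 19. The SEs hold counting error as well as the spread between libraries. Neuron markers summed to 22.4 to 47.6 CPM in CD45 WT and 31.6 to 144 CPM in CD45 KO libraries, all 8 had a positive log2 difference, none passed, and their part was not tested. Among the partner lists 0 genes passed, and the genes with the smallest p were Epha5 (0.98), Ephb6 (0.73), Chn1 (1.18) and Fyn (0.14), while Epha4 had -0.17 (SE 0.31, edgeR adjusted p = 0.989).

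Whether the genotype difference itself differed between fractions was tested by the interaction over 14 libraries. It was passed by 0 of 5 ligands and by 0.0% of 18098 genes (1305 at an unadjusted p under 0.05, 46 by DESeq2). For Efna2, whose differences had opposite signs, the interaction was -0.84 (SE 0.52, edgeR adjusted p = 0.758). For Efna3 it was 0.01, and for Efna1, Efna4 and Efna5 -0.10, 0.12 and 0.46.

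The genes whose profiles over the 14 libraries lay nearest to each ligand were found by the root mean square distance of centred log2 CPM, a measure that the gap between fractions dominates. Efna1 was nearest to Jup (0.222), Klf5 (0.225) and Tgfb1i1 (0.234), beside a median distance of 1.44 over all genes compared. Jup encodes plakoglobin of cell junctions, and Klf5 a zinc-finger transcription factor. Efna2 was nearest to Mpp2 (0.384), Cpm (0.417) and Rasl11a (0.419), with a median of 2.23. For Efna3 the nearest were 3 genes of neurons and secretory vesicles, Nptxr (0.259), Syp (0.29) and Chga (0.303), with a median of 1.21. Exons of Nptxr and Syp overlap Npcd and Gm14703 over 17.2% and 16.8% of their length. Between genotypes in the flow-through, the log2 differences were 0.81 for Nptxr, the neuronal pentraxin receptor, 0.65 for Syp, synaptophysin, and 0.70 for Chga, chromogranin A. These genes were chosen for a profile over the same KO and WT libraries, so their differences are a description with no test. Among the genes nearest to Efna4 were Brd3os (0.316) and Tmem107 (0.33), with a median of 1.46, and among those nearest to Efna5 were Cyb561 (0.353) and Tmtc1 (0.385), with a median of 1.47. Exons of Cyb561 overlap Gm9910 over 10.3% of their length.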

How the data were processed

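The only values used were raw gene counts, deposited by the authors as 1 table for each fraction. Per the submitters' processing notes, the tools were Trim Galore, FastQC, STAR 2.7.9a and DESeq2, with the build GRCm38. The labels name a stranded mRNA preparation with 14 cycles of PCR. The sources used here do not give the counting tool, strand setting or annotation. Of 33223 genes, 33130 matched GENCODE M21, which gave symbols, positions and exon length (union of exons). CPM is the count scaled to the library total, without further correction.

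The test was edgeR's (4.0.16, in R 4.3.3) robust quasi-likelihood test with TMM scaling and filterByExpr (minimum count 10, total 15), adjusted by Benjamini-Hochberg over all genes tested and called under 0.05. This test gives no SE, so each SE was derived as the size of the log2 difference over the square root of the F value. Genotypes were fitted within a fraction. The fraction contrast and the interaction used 14 libraries with 1 mean per group. The scripts were tested on simulated data. No library was a duplicate of another in its group: over the 18 pairs within groups, chi-square per degree of freedom was 9.42 to 49.8. Pairs across groups and pairs with the left-out library were not compared. Totals were 11574414 to 31337948 counts, and 3 counts equal 0.0957 to 0.259 CPM.

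The ligands and gene lists were chosen with earlier results of these data known. Besides the 5 ligands, genes named are Epha4, up to 4 called genes per direction and list with the smallest p (or the smallest p alone where none was called), the nearest protein-coding neighbours, the 3 nearest profiles per ligand (mean log2 CPM of at least 1), and markers. Of the nearest profiles of Efna4 and Efna5, 1 gene each is not reported here. Alternatives were other scalings, no filter, DESeq2 1.42.0, an offset for GC content and length, a joint fit, single genotypes, the longest transcript as length, leaving out each library, and use of the left-out library (called replicate 5) under its label. Plain library totals were added after seeing the data.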

Additional observations from a re-analysis of the deposited data

Results flagged for a closer look

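In 1 of 32 checks of groups of 4 libraries, a single library stood apart from the rest, and chance gives about 1 in 20: the monocyte and neutrophil markers summed to 9694 CPM in CD45 KO replicate 3, above the 3 other CD45 KO libraries. That library also has the fewest counts, 11574414. Its ligand values lay within the range of the other CD45 libraries.

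The left-out library labelled flow-through WT, which entered no comparison, had marker sums above the flow-through WT libraries: 7171 CPM for leukocytes, 2582 for homeostatic microglia, 8220 for monocytes and neutrophils, and 370.0 for endothelial cells. The flow-through WT libraries reached at most 35.5, 123, 11.4 and 61.0 CPM.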

How the results depend on the processing

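In the fraction comparison, 5 of 5 ligands were called lower under all 23 alternatives, with log2 differences of -3.18 to -2.51 for Efna1, -5.01 to -4.01 for Efna2, -2.18 to -1.47 for Efna3, -3.24 to -2.52 for Efna4 and -3.23 to -2.44 for Efna5. The count of genes called between genotypes in the flow-through, 260, was 629 without the low-count filter, 436 with DESeq2, 30 in the joint fit and 0 with the left-out library used under its label, and 134 to 287 when single libraries were left out (134, 144, 159 and 163 without KO replicate 1, WT replicate 2, WT replicate 3 and KO replicate 2). Ligands called there numbered 1 without the filter and 1 with DESeq2 (Efna3 in both), and 0 to 1 in the leave-one-out fits (1 without WT replicate 1). In CD45, DESeq2 called 10 genes and leave-one-out fits 0 to 1 (1 without CD45 KO replicate 1). The interaction gave 15 genes without the filter, 46 with DESeq2 and 0 to 2 in leave-one-out fits (2 without CD45 WT replicate 2 or 3, 1 without CD45 KO replicate 1). The cause of these differences was not tested.

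Values near 0 changed sign. With the offset for GC content and length, Efna1 had -0.0066 in the flow-through and 0.0084 in CD45. The interaction of Efna3 was -0.0055 with RLE size factors, -0.020 without the filter and -0.031 with the left-out library used under its label, which also gave -0.13 for Efna4. Leaving out single libraries gave -0.026 to 0.15 for Efna1 and -0.50 to 0.35 for Efna5 in the flow-through, and -0.31 to 0.32 for Efna1 and -0.60 to 0.22 for Efna4 in CD45. For the interaction it gave -0.41 to 0.25 (Efna1), -0.68 to 0.37 (Efna3), -0.28 to 0.53 (Efna4) and -0.35 to 1.00 (Efna5). Per kilobase of the longest transcript, Efna1 averaged 10.6 CPM in the flow-through, against 9.43 by all exons. No paired analysis was possible because the labels give no replicate numbers and name no animals. In CD45, 4 ligands had fewer than 60 counts in every library and Efna2, Efna4 and Efna5 had 3 in their lowest, so counting error is wide there.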
